A study of Mus musculus with 6 samples.

Results

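The 9 genes described here encode the 7 subunits of the NMDA receptor (Grin1, Grin2a, Grin2b, Grin2c, Grin2d, Grin3a and Grin3b), serine racemase (Srr) and D-amino acid oxidase (Dao). They were taken by symbol from a count table of 24391 genes, in which each symbol occurred once, and their expression was compared between Neuro2a cells given D-serine and cells given vehicle. At least 1 read was counted for 8 of the 9 genes, and 5 (Grin1, Grin2d, Grin3a, Grin3b and Srr) passed the filter on low counts and could be tested.

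NMDA receptors are glutamate-gated cation channels built around the obligatory subunit GluN1, the product of Grin1, which carries the binding site for the co-agonists glycine and D-serine. GluN1 assembles with GluN2 subunits (Grin2a to Grin2d), which bind glutamate and set the kinetics and the magnesium block of the channel, or with GluN3 subunits (Grin3a and Grin3b), which bind glycine. Srr, a pyridoxal phosphate-dependent enzyme, makes D-serine from L-serine and also removes it by elimination to pyruvate, whereas Dao, a flavoenzyme of peroxisomes, degrades D-serine by oxidation.

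Neuro2a is a mouse neuroblastoma line. All cultures were moved to a medium named D-MEM(-SG) in the labels, with 10% fetal bovine serum, for 18 h. The control group (3 libraries) received vehicle in that medium, and the D-serine group (3 libraries) received 5 mM D-serine. The labels do not say whether replicates were separate cultures, so p-values measure the spread between these libraries, which may be technical. Libraries held between 32518483 and 40024265 counts. D-serine replicate 1 stood apart from its group, with a chi-square statistic per degree of freedom of 13.9 and 17.7 against the other D-serine libraries, where all other pairs of a group lay between 3.88 and 6.54. Of 15 markers of neuroblastoma and sympathetic neurons, 15 had counts, among them Tubb3 and Hand2, although Nefl and Nefm had at most 17 counts over the 6 libraries. The astrocyte markers Aqp4 and Gja1 and the glutamatergic neuron markers Slc17a6 and Neurod6 had no count in any library.

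Transcripts of the family were mainly those of Grin1, Grin2d and, at lower levels, Grin3b, alongside the enzyme gene Srr. Levels of different genes are compared in TPM, which corrects for exon length, and 4 members had a mean above 1 TPM in both groups. Grin1 was the highest, at 4.52, 5.88 and 5.54 TPM in control libraries 1 to 3 and 6.75, 6.79 and 7.49 TPM in D-serine libraries 1 to 3. All 6 Grin1 values exceeded every value of the other members. Even so, 44.0% of the 17635 genes with any count lay below Grin1 in mean TPM, which places it in the lower part of the detected transcriptome.

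Srr and Grin2d came next, and their ranges overlapped. Srr was at 3.20, 2.58 and 2.56 TPM in control and 2.96, 2.89 and 3.22 TPM with D-serine. Grin2d was at 3.06, 2.03 and 2.21 TPM in control and 2.54, 3.11 and 3.42 TPM with D-serine. Grin3b followed at 1.09, 1.10 and 1.71 TPM in control and 0.957, 1.32 and 1.43 TPM with D-serine, below the lowest values of Srr and Grin2d.

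The other 5 members were close to the detection limit. Grin3a lay between 0.0527 and 0.129 TPM (7 to 17 counts per library) and Grin2c between 0.0304 and 0.180 TPM (2 to 14 counts). Dao had 4, 0 and 4 counts in control libraries 1 to 3 and 1, 2 and 0 counts in D-serine libraries 1 to 3. Grin2b, the main GluN2 subunit of immature forebrain neurons, had 0 counts in every control library and 2, 2 and 0 counts in D-serine libraries 1 to 3. Grin2a, which replaces much of Grin2b in the maturing forebrain, had 0 counts in all 6 libraries. With 222850489 counts in all, 3 counts over the 6 libraries together would be 0.0135 CPM or 0.00703 TPM for Grin2a, so Grin1, at 6.23 TPM over the same libraries, was at least 886-fold higher per length. This limit covers counting error only.

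**Figure D1:**
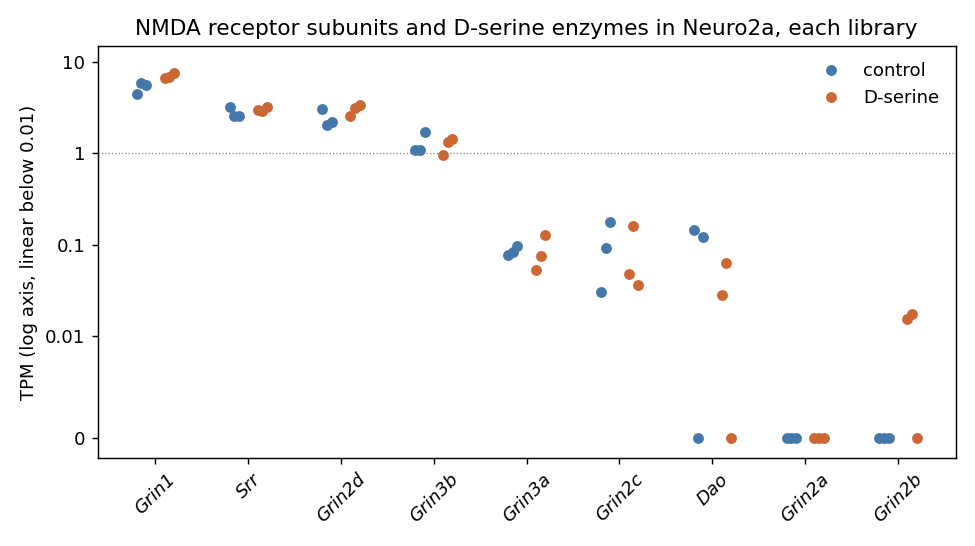
Level of each member in every library, in TPM on a log axis that is linear below 0.01, with control libraries in blue and D-serine libraries in orange. The dotted line marks 1 TPM. Grin1, Srr, Grin2d and Grin3b lie near or above it, whereas Grin3a, Grin2c and Dao stay below 0.180 TPM and Grin2a is at 0 in all 6 libraries.

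The promoters of Grin1, Srr and Grin3b are shown because these are the members above 1 TPM whose RefSeq start differed by at most 9 bases from the GENCODE start. Each sequence is the 250 bases before the RefSeq start in GRCm38.p6, read 5′ to 3′ on the gene's strand. The windows are chr2:25319188-25319437 (minus strand) for Grin1, chr11:74925949-74926198 (minus strand) for Srr and chr10:79970474-79970723 (plus strand) for Grin3b. Capitals mark matches, on either strand, to GGGCGG (the GC box bound by Sp1), GGACAG (the right-hand end of the RE1 element bound by REST) or TATAAA (the TATA box).
Grin1: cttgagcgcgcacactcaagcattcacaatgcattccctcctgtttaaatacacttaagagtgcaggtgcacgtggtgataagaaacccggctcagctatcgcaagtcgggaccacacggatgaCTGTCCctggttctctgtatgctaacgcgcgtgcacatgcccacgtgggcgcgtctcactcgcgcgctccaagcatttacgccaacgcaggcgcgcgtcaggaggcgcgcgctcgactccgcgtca
Srr: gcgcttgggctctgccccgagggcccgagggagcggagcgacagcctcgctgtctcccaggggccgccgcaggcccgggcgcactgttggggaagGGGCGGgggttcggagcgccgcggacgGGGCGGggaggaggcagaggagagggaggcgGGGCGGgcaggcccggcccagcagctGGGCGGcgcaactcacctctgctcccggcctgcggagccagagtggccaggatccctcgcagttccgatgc
Grin3b: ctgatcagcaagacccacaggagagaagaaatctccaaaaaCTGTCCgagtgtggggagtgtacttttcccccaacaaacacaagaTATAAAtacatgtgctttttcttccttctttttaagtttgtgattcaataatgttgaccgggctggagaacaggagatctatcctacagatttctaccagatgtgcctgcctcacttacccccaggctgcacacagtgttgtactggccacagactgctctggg

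The 3 windows differed in composition. The Grin1 window held 27 CpG dinucleotides, more than 91.4% of 32851 mouse promoter windows of the same length, and the Srr window held 26, more than 90.4%. The Grin3b window held 2 CpG, more than 18.8% of the windows, and a TATAAA match, a motif found in 12.4% of all windows. Srr had 4 GC boxes, where 32.7% of all windows had at least 1, and Grin1 had none with these letters. A GGACAG match occurred once each in Grin1 and Grin3b and in 18.7% of all windows. Of the other motifs searched, TTCAGCACC (the left-hand end of RE1, 0.301% of all windows), the palindromic NRF1 motif (0.782%), TGACGTCA (the cyclic AMP response element, 1.55%) and CCAAT (33.8%) had no match in these 3 windows. These matches describe letters and were not tested as binding sites. RefSeq windows were found for 6 of the 9 members. The RefSeq start of Grin2d lay 11697 bases from the GENCODE start, and its window is therefore not shown.

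D-serine and control libraries were then compared, to ask whether the co-agonist changed expression of its own receptor and enzymes. Grin1 was higher with D-serine by 1.33-fold (95% interval 1.13 to 1.56), and it was the only 1 of the 5 tested members to pass an adjusted p of 0.05 in the edgeR quasi-likelihood test. The background share of calls was 9.74% of the 13366 genes tested, 4.84% higher and 4.90% lower with D-serine, so 1 call among 5 members is not far from it. For changes within a gene, values are given in CPM, which is a count relative to the TMM-scaled library size. In control libraries 1 to 3 Grin1 was at 8.21, 10.8 and 10.4 CPM, from 265, 401 and 386 counts. In D-serine libraries 1 to 3 it was at 13.0, 12.4 and 13.9 CPM, from 509, 455 and 559 counts.

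The Grin1 groups did not overlap, as was the case for 16.2% of all tested genes in this direction, and control replicate 1 was the lowest library. In RNA from whole cultures, more cells that express Grin1 and more Grin1 RNA per cell cannot be told apart. Mean Grin1 expression was 9.80 ± 1.39 CPM for control and 13.1 ± 0.75 CPM for D-serine (± SD, n = 3 per group; edgeR adjusted p = 0.0313, log2 fold change 0.41, SE 0.11). The call was lost without control replicate 1 (log2 fold change 0.31, adjusted p = 0.112), control replicate 2 (0.49, 0.0654), control replicate 3 (0.46, 0.0622) or D-serine replicate 3 (0.37, 0.106). Without D-serine replicate 1, the library that stood apart, it was kept (0.42, adjusted p = 0.0195).

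Grin1 lies on chromosome 2, from 25146697 to 25174707 on the minus strand as deposited, with 21 merged exons. Its exons share 1307 bases with Grin1os, an antisense transcript, and 17 bases with Lrrc26, also on the opposite strand. Whether counting used strand is not given in the sources used here, and reads from the shared bases cannot then be assigned with certainty. Grin1os, with 2894 exonic bases, was itself assigned 3 to 12 counts per library, and Lrrc26 2 to 12. For the same reason, these counts do not settle the part of antisense reads in Grin1, which was not tested.

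**Figure D2:**
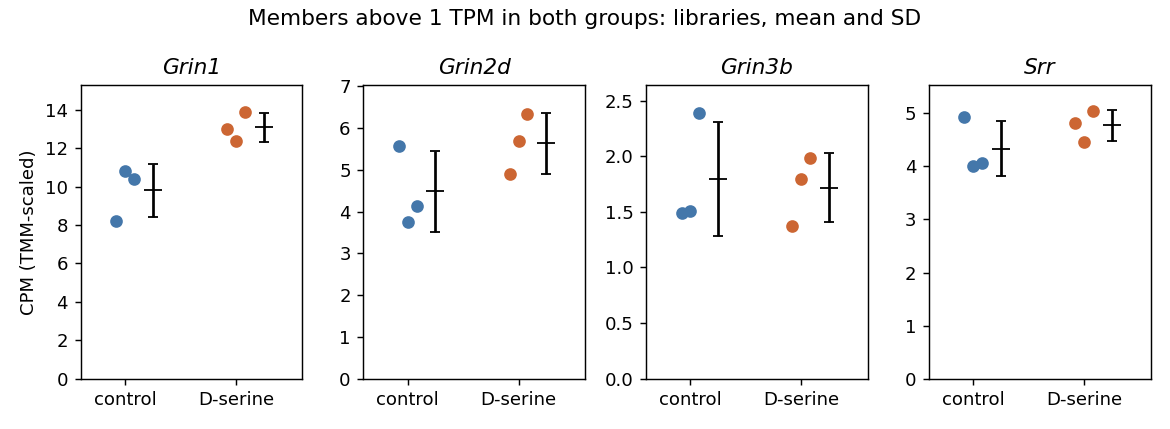
CPM of the 4 members above 1 TPM in each library (points, control in blue and D-serine in orange), with the group mean and SD in black, on axes that start at 0. The Grin1 groups are separate, at 8.21 to 10.8 against 12.4 to 13.9 CPM, whereas those of Grin2d, Grin3b and Srr overlap.

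Among the GluN2 genes, Grin2d (chromosome 7, 53087853 to 53122051, minus strand) had almost all of the transcripts. It made up 95.7% ± 3.27 of the summed Grin2a to Grin2d TPM in control and 97.1% ± 2.22 with D-serine (± SD, n = 3 per group). GluN2D is the subunit with slow deactivation and weak magnesium block that is common in embryonic brain. Grin2d was at 5.58, 3.75 and 4.14 CPM in control libraries 1 to 3 and at 4.89, 5.68 and 6.35 CPM in D-serine libraries 1 to 3. The highest control library, replicate 1, lay above the lowest D-serine library, replicate 1. The ratio was 1.26 (95% interval 0.989 to 1.61; log2 fold change 0.34, SE 0.16, edgeR adjusted p = 0.196), so a difference was not detectable, but the interval includes the fold change of Grin1. It did not pass the threshold in any of its 16 alternative fits, with adjusted p-values from 0.0950 to 0.491. Grin2c (chromosome 11, 115110483 to 115128557), a subunit typical of cerebellar granule cells, had 2, 7 and 14 counts in control libraries 1 to 3 and 4, 12 and 3 counts in D-serine libraries 1 to 3. Those groups overlapped, and it was not tested, like Grin2a (chromosome 16) and Grin2b (chromosome 6).

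The GluN3 genes showed no detectable difference. Grin3b (chromosome 10, 79433469 to 79439935, plus strand), whose product is best known from motor neurons, was at 1.49, 1.51 and 2.39 CPM in control and at 1.38, 1.79 and 1.99 CPM with D-serine. Control replicate 3 was the highest of the 6 and D-serine replicate 1 the lowest, and the groups overlapped. The ratio of D-serine to control was 0.954 (95% interval 0.650 to 1.40; edgeR adjusted p = 0.898). Grin3b shares 71 exonic bases with Tmem259 on the opposite strand, which had 3273 to 3752 counts per library against 48 to 89 for Grin3b. Grin3a (chromosome 4, 49674483 to 49858641, minus strand), whose product lowers the calcium permeability of receptors that contain it, had 8, 10 and 12 counts in control and 7, 9 and 17 with D-serine. Its ratio was 1.01, with a wide 95% interval of 0.483 to 2.10 (edgeR adjusted p = 0.992), so at this depth a change of 2-fold is still inside the interval.

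Of the D-serine enzymes, Srr was expressed and Dao barely detected. Srr (chromosome 11, 74719861 to 74739300, minus strand) was at 4.93, 4.02 and 4.06 CPM in control libraries 1 to 3 and at 4.82, 4.46 and 5.04 CPM in D-serine libraries 1 to 3. Control replicate 1 lay within the D-serine range and the other control libraries below it. The ratio was 1.10 (95% interval 0.897 to 1.36; log2 fold change 0.14, SE 0.14, edgeR adjusted p = 0.534). Srr shares 1159 of its 3699 exonic bases with Tsr1 on the opposite strand. Tsr1, a ribosome biogenesis factor, had 2924 to 3647 counts per library against 149 to 203 for Srr, so the level of Srr is uncertain without a known strand setting. Dao (chromosome 5, 114453744 to 114475684, plus strand) had 11 counts over the 6 libraries and was not tested.

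The proportions between the members were compared per length. The summed TPM of the 7 subunits was 8.78, 9.18 and 9.73 in control libraries 1 to 3 and 10.4, 11.5 and 12.5 in D-serine libraries 1 to 3, without overlap, and Grin1 is the largest part of it. Grin1 made up 51.5% to 64.0% of it in control and 59.2% to 65.1% with D-serine, and these ranges overlap. The ratio of Grin1 to Grin2d in TPM was 2.29 ± 0.73 in control and 2.34 ± 0.27 with D-serine (± SD, n = 3 per group). The ratio of Grin1 to Srr in TPM was 1.95 ± 0.47 in control and 2.32 ± 0.035 with D-serine, with the highest control value (2.277) just under the lowest D-serine value (2.279). Control replicate 1 had the lowest values of both ratios, at 1.48 and 1.41. These shares and ratios are descriptions without a test.

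Genes that act with the receptor or with D-serine were examined through 4 lists of 74 genes in all, of which 61 could be tested. Of these 61, 10 passed the threshold (16.4%, against 9.74% of all tested genes), 6 higher and 4 lower with D-serine. The median log2 fold change of the 61 was -0.069, against 0.0053 over all tested genes. The lists were chosen with earlier results of these data known. A share above the background can come from that choice, and these shares are given as a description only.

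The list on D-serine and co-agonist handling had 12 tested genes of 17, with 2 higher and 3 lower and a median log2 fold change of -0.12. Slc1a4, an exchanger of neutral amino acids that carries L- and D-serine, fell to 0.819 of control (95% interval 0.771 to 0.869; edgeR adjusted p = 0.00336), from 262 to 268 CPM in the control libraries to 214 to 221 CPM with D-serine. Its relative Slc1a5 fell to 0.902 of control (0.849 to 0.958; adjusted p = 0.0363), but its call was lost under upper quartile scaling (adjusted p = 0.0845) and with library totals (0.0723). Slc38a1, the most abundant of the list by CPM, was at 602 CPM (control) and 563 CPM (D-serine) and did not pass (adjusted p = 0.187). Slc7a10, the D-serine exchanger of neurons, had no count in any library.

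The other genes of this list that are described here belong to the cofactor and the binding partners of serine racemase. Pdxk, the pyridoxal kinase, which acts in the supply of the pyridoxal phosphate cofactor, fell from 108 ± 2.29 to 97.0 ± 2.46 CPM (± SD, n = 3 per group; edgeR adjusted p = 0.0460, log2 fold change -0.16). The Pdxk call was kept in 6 of 16 alternative fits. It was lost, among others, under upper quartile scaling, with library totals and with a trend on gene length removed. Pick1, a PDZ protein that binds serine racemase, rose from 21.9 ± 0.14 to 25.5 ± 0.97 CPM (log2 fold change 0.22, adjusted p = 0.0469). Its call was kept in 8 of 16 alternative fits and lost, among others, in limma-voom (adjusted p = 0.0508).

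In the list on receptor signalling, 3 of 20 tested genes passed, all higher, and the median log2 fold change was -0.023. They included Cdk5, a kinase that acts on GluN2 subunits (8.58 ± 0.80 to 11.0 ± 0.21 CPM; log2 fold change 0.36, edgeR adjusted p = 0.0363), and Calm2, which encodes calmodulin (0.18, adjusted p = 0.0221). Calmodulin binds GluN1 in the presence of calcium.

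In the list on scaffold and transport proteins, 0 of 20 tested genes passed in the edgeR, DESeq2 or limma-voom fit, and 7 had an unadjusted p under 0.05 in edgeR (35.0%, against 28.2% of all tested genes). Under upper quartile scaling, with library totals or without a filter on low counts, 1 passed. With a trend on gene length removed 2 passed, and 3 when a replicate block was added to that fit. Without D-serine replicate 1, 3 passed. The median log2 fold change was -0.051. Lin7c was the most abundant by CPM (211 CPM (control) and 225 CPM (D-serine), adjusted p = 0.146). Dlg4, which encodes the scaffold PSD-95 that anchors GluN2 subunits, was at 161 CPM (control) and 156 CPM (D-serine) (adjusted p = 0.465).

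Of 10 tested regulators of transcription, 1 rose and 1 fell, and the median log2 fold change was -0.11. Rcor1, a corepressor that works with REST, fell from 91.5 ± 3.12 to 79.4 ± 5.74 CPM (± SD, n = 3 per group; edgeR adjusted p = 0.0410, log2 fold change -0.20), but its call was lost under upper quartile scaling and with library totals. Nfya, a subunit of the CCAAT-binding factor NF-Y, rose from 141 ± 3.20 to 157 ± 5.42 CPM (0.15, adjusted p = 0.0449). REST, a repressor of Grin1 in cells other than neurons, is encoded by Rest, which was at 85.3 ± 5.25 CPM (control) and 72.6 ± 10.2 CPM (D-serine) and did not pass (log2 fold change -0.23, adjusted p = 0.0937). Over both groups the most abundant regulator by mean CPM was Sp1, at 221 CPM (control) and 201 CPM (D-serine) (adjusted p = 0.177).

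**Figure D3:**
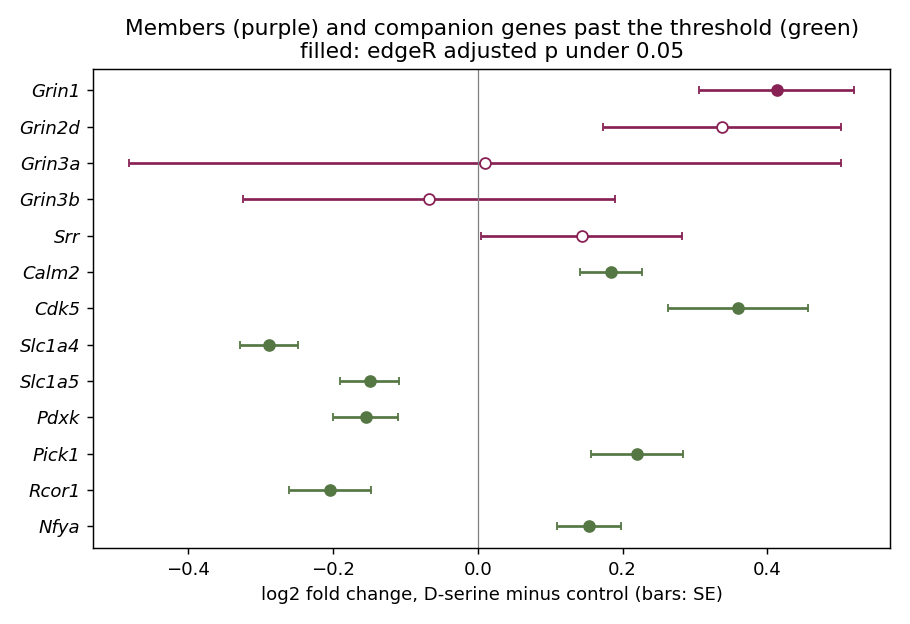
Log2 fold change, D-serine minus control, with its standard error, for the 5 tested members (purple) and 8 of the 10 companion genes past the threshold (green). Filled points have an edgeR adjusted p under 0.05. Grin1, at 0.41, is the only filled member, and Cdk5 (0.36) and Slc1a4 (-0.29) lie farthest from 0 among the companion genes drawn.

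Of these 10 genes, Slc1a4 kept its call in all 16 alternative fits, and the other 9 lost it in at least 3. Slc1a5 passed in 8 of the 16, Rcor1 in 9, Cdk5 and Nfya in 10 each and Calm2 in 11. Without control replicate 1, or without control replicate 2, 1 of the companion genes passed. Without control replicate 3, or without D-serine replicate 3, 2 passed, and without D-serine replicate 1 there were 16.

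Grin1 was set against the full range of fits because its call rested on few libraries. Its log2 fold change ran from 0.31 to 0.49 over 16 alternatives, of which 11 passed the threshold, with adjusted p-values from 0.0060 to 0.112. A positive sign in all 16 is fixed by groups that do not overlap and is no sign of stability. Upper quartile scaling gave 0.44 and library totals gave 0.44, so the choice of scaling left the Grin1 call in place. Over all genes the split into higher and lower did depend on scaling, with 647 higher and 655 lower genes after TMM, 914 and 412 after upper quartile scaling, and 944 and 412 with library totals.

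**Figure D4:**
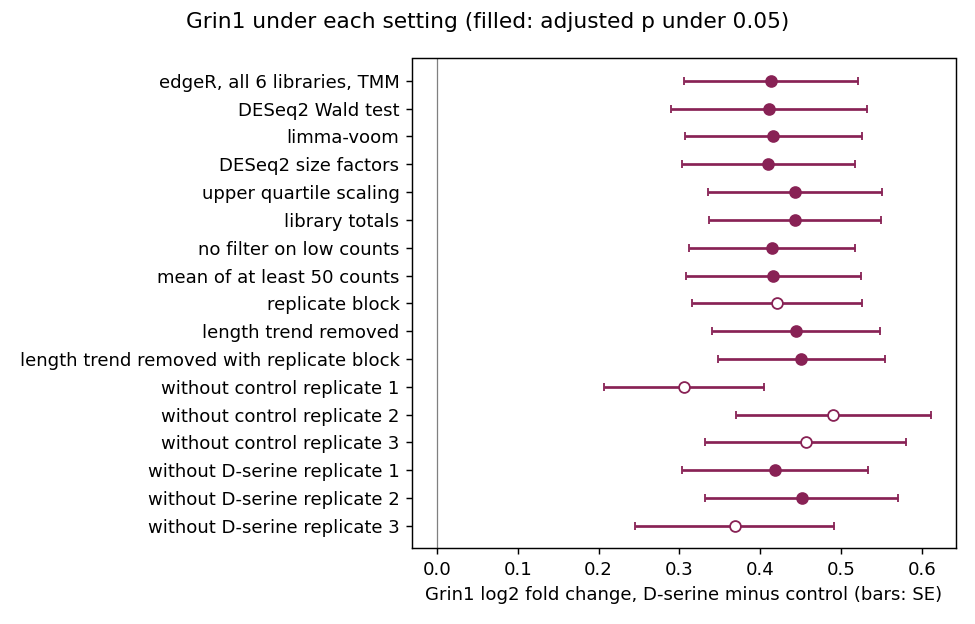
Log2 fold change of Grin1 with its standard error under each of 17 settings (the reported fit and 16 alternatives). Filled points have an adjusted p under 0.05. All values lie between 0.31 and 0.49, and the open points are the replicate block and the fits without control replicate 1, 2 or 3 or without D-serine replicate 3.

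The genes with the pattern most like Grin1 over the 6 libraries, among 11292 candidates with a mean of at least 1 CPM, were Cfl2 (Pearson's r = 0.991 of log2 CPM) and Asb13 (r = 0.989). For Grin2d they were Tgfb2 and Golim4 (r = 0.983 each), for Srr Vax2os (0.988) and Cd276 (0.986), for Grin3b Mpp1 (0.979) and Gpr173 (0.976), and for Grin3a Chpt1 (0.992) and Exd2 (0.979). With 6 points that share 2 groups and so many candidates, high values of r are common, and they are given as a description only.

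The summed level of the neuroblastoma markers was, like that of Grin1, without overlap between the groups. It was 1694 to 1782 CPM in control and 1839 to 1953 CPM with D-serine. Of single tested genes, 16.2% were without overlap in this direction. The threshold was passed by 2 of the 12 tested, Tubb3 (neuronal tubulin; log2 fold change 0.25, edgeR adjusted p = 0.0148) and Mycn (0.15, adjusted p = 0.0475). Over all tested genes 9.74% passed, so 2 calls among 12 markers are not far from the background. The part of these markers in the Grin1 result was not tested. Of 7 astrocyte markers 0 were expressed highly enough to be tested, and their sum was 0.189 to 0.430 CPM in control and 0.357 to 0.744 CPM with D-serine. Summed markers of microglia were at 0.566 to 0.774 CPM in control and 0.198 to 0.462 CPM with D-serine. Over both groups, those of oligodendrocytes were at 24.9 to 27.4, those of fibroblasts at 4.61 to 6.90 and those of glutamatergic neurons at 42.5 to 52.8.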

How the data were processed

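Polyadenylated RNA of Neuro2a cells was sequenced in 6 libraries with a stranded kit. The authors deposited unnormalised counts for each gene, with exon lengths, in a single table in the column format of featureCounts per the file headers. HISAT2, featureCounts, Trim Galore and the builds GRCm38 and mm10 are named in the submitters' processing notes, without versions. The strand setting is not given in the sources used here. Of 23175 symbols with 1 RefSeq row in GRCm38.p6, 314 had the same start, and none of the 9 members did, so gene coordinates are given as deposited, from a build that is not settled.

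Counts were tested with edgeR 4.0.16 (R 4.3.3; filterByExpr, TMM, quasi-likelihood F test, no covariate, Benjamini-Hochberg over 13366 genes, threshold 0.05). The standard error is the log2 fold change divided by the square root of F. TPM was computed from counts and deposited exon length. Vehicle columns were assigned to the control samples of the same number. The alternatives were DESeq2 1.42.0, limma-voom (limma 3.58.1), other scalings and filters, a replicate block, removal of a spline trend on gene length and leaving out each library. The fit was tested on simulated data. The members and gene lists were chosen with earlier results of these data known. Named genes are all members, list genes past the threshold, the most abundant gene of each list, the 2 genes most like each tested member, and exon overlaps. Rest, Dlg4, Slc7a10 and Tubb3, among others, were named after their values were seen. Some genes picked by this rule are not reported here.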

Additional observations from a re-analysis of the deposited data

How the results depend on the processing

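The number of calls depended most on which libraries were used, and the cause was not tested. Over the 6 fits that left out 1 library, between 68 and 1699 genes passed in all, 47 to 783 higher and 21 to 916 lower, with 0 to 1 of the members and 1 to 16 of the companion genes. The lowest counts came without control replicate 2 (68) and control replicate 1 (125), followed by D-serine replicate 3 (291) and control replicate 3 (453). With the replicate number as a block, 298 genes passed (178 higher, 120 lower), with 0 members and 1 companion gene. In that fit Grin1 had an adjusted p of 0.0568. Samples with the same number did not deviate together (correlations of -0.069, 0.020 and -0.019), nor did every sample correlate best with its own number. With 3 libraries per group, such correlations cannot exclude a small effect shared by samples of the same number, so pairing is not settled. With the length trend removed, 2043 genes passed (1023 higher, 1020 lower), with 16 companion genes, and with the block added 1900 (945 higher, 955 lower). Without a filter 987 lower genes passed, and under upper quartile scaling or library totals 412. Grin3a, at 7 to 17 counts, had no stable sign. Its log2 fold change was -0.074 in limma-voom, -0.016 with the replicate block and -0.41 to 0.25 over the fits that left out 1 library. That of Grin3b ran from -0.19 to 0.20 in the same fits, with values above 0 without D-serine replicate 1 (0.070) or control replicate 3 (0.20). In CPM in place of TPM, 4 members again had a mean above 1 in both groups. Depth limits Grin2a, Grin2b, Grin2c, Grin3a and Dao, which had at most 17 counts in any library.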

Other observations

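The following values of low genes in the lists were chosen after they were seen, and none shows a difference by the test used here. Dlgap2, a postsynaptic scaffold gene, had 0, 0 and 2 counts in control libraries 1 to 3 and 4, 8 and 12 counts in D-serine libraries 1 to 3. Ptpn5, the striatal-enriched phosphatase that acts on GluN2B, had 2, 0 and 2 counts in control and 9, 6 and 3 counts with D-serine. Col1a2, a collagen gene, had 2, 4 and 4 counts in control and 0, 0 and 0 counts with D-serine. These 3 genes were not tested. Csf1r, a receptor gene of microglia, had 19, 11 and 16 counts in control and 3, 8 and 3 counts with D-serine and did not pass (edgeR adjusted p = 0.0601). Th, which encodes tyrosine hydroxylase, was at 1.33, 1.99 and 1.15 CPM in control and at 2.96, 2.04 and 2.31 CPM with D-serine, and did not pass either (edgeR adjusted p = 0.0899).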
